A study of Homo sapiens with 2 samples.

Results

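The genes described here are 9 members of the p53 network: MDM2, MDM4, CDKN1A, GDF15, FAS, TNFRSF10B, ZMAT3, RRM2B and BTG2. They were chosen by symbol from a table of 56255 gene symbols, and each symbol stood on 1 row. The gene of p53 itself is not among the 9, so the group holds p53's 2 main inhibitors and 7 genes that p53 activates. All 9 reached the level used throughout for counting a gene, an RPKM of 1 or more in either library, as did 17350 symbols in all.

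The study compared RNA of A549 cells, an established human lung adenocarcinoma line, in 2 libraries: untreated wild-type cells (WT, 1 library) and cells overexpressing MYOCD (MYOCD, 1 library). MYOCD encodes myocardin, a muscle coactivator of the transcription factor SRF. The cells of both groups are of 1 line grown in DMEM with serum. The sources used here do not give the vector, the promoter that drives MYOCD, whether the cells are a clone, or the time of expression. With no second library in either group, no value has a replicate error, no test was made, and each difference is one between 2 libraries. In addition, fewer cells making a transcript and less of it per cell cannot be told apart in bulk RNA.

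p53 is a transcription factor that is stabilised by DNA damage and other stresses. In unstressed cells MDM2, a ubiquitin ligase, marks p53 for destruction, and MDM4, its relative, binds p53 and blocks its activity. Activated p53 switches on genes that halt the cell cycle, repair DNA or promote cell death, and it also switches on MDM2, which closes a negative feedback loop. A549 cells are known to keep an intact p53 gene and to have lost CDKN2A, which encodes, beside a CDK inhibitor, the MDM2 antagonist ARF.

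The overexpressed gene differed in the direction of the labels: MYOCD stood at 0.304 RPKM in WT against 48.6 in MYOCD. Its model shares 704 nt of exon with AC005358.2 on the opposite strand (0.0702 and 2.16 RPKM). RPKM is the number of reads normalised to gene length and library size. CDKN2A was listed at 0.0950 RPKM in WT against 0 in MYOCD. Of 5 epithelial markers all were detected, led by KRT18 (1647 and 1134 RPKM in WT and MYOCD) and KRT8 (1523 and 1059). CDH1 stood at 35.0 and 35.8 RPKM and KRT19 at 2.94 and 3.24. EPCAM (0.889 and 2.57) was the 1 of the 5 at or beyond 2-fold. Of 7 alveolar type II markers only ABCA3 (5.55 and 6.72) reached 1 RPKM, SFTPC was at 0 in both libraries, and NKX2-1 stood at 0.0812 and 0. Summed fibroblast markers came to 3.83 RPKM in WT against 15.3 in MYOCD, nearly all of it COL1A1 (3.05 and 14.3), with DCN at 0 in both. The 5 endothelial markers summed to 0.00689 and 0.139 RPKM. The 6 blood cell markers summed to 2.52 and 1.68, most of it CD14 (2.31 and 1.17), with PTPRC at 0 in both. The part of the fibroblast markers in the results below was not tested.

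p53 acts through a response element made of a pair of half-sites, each of 10 bases with a fixed C and G at its core. RefSeq promoter windows (GRCh38.p14, 250 bases before to 50 after each transcript start) were found for 7 of the 9 genes and searched for 2 adjacent half-sites with both cores intact and up to 3 mismatches in 20 bases. The element reads alike on both strands. A match was present for 3 of the 7 genes, MDM2, GDF15 and FAS, while 1.12% of all 35116 windows and 1.37% of all 27305 genes held one. With up to 2 mismatches MDM2 and FAS remained, against 0.285% of windows and 0.359% of genes. The 9 genes were chosen as members of the p53 network, and the mismatch limit was set after the matches were seen. The 7 genes also had 13 windows between them. The shares over all genes are thus given for scale and are no test of enrichment. A match describes the letters of the window and is not a measured binding site. The sites are shown because these 3 genes include both the lowest and the highest change of the 9 genes. Each is printed from 5′ to 3′ on the plus strand with the 20 matching bases in capitals and the flanking bases in lower case.
FAS (chr10:88991304-88991333): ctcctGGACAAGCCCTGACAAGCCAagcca
MDM2 (chr12:68808918-68808947): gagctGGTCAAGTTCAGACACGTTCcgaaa
GDF15 (chr19:18386181-18386207): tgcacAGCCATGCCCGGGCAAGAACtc

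The FAS match ran from position -122 to -103 relative to the most downstream of 3 RefSeq starts of that gene, and after the others. It lay inside annotated exons of FAS and of ACTA2, a gene on the opposite strand. The GDF15 match lay 29 to 48 bases after the start, in an annotated exon of GDF15, and had 3 mismatches. The MDM2 match ran from position -94 to -75 relative to the start of the downstream promoter, which is the p53-responsive one, and lay in no annotated exon. The search required the core C and G of each half-site, so an element that lacks one stays in lower case. The 235 bases of MDM2 sequence around the match that lie outside annotated exons (chr12:68808767-68809001, plus strand, match in capitals) read as follows.
MDM2: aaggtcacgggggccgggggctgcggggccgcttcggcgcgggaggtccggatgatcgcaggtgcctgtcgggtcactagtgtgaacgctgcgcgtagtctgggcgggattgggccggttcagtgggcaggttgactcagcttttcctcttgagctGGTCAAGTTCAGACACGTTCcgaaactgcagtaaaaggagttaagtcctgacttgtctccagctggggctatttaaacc
The upstream MDM2 promoter held no match in this window, nor did the windows of CDKN1A, MDM4, ZMAT3 and BTG2. Bases farther than 250 before or 50 after a start were not searched, so these genes may hold elements outside the windows. The CArG box, the motif bound by SRF, with which MYOCD acts, was found in the windows of 0 of the 7 genes. Over all genes 1.60% held one, or 1.29% of all windows. The Sp1-type motif GGGCGG, on either strand, was in a window of 6 of the 7 genes, MDM4 being the exception, and in 48.3% of all genes.

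**Figure D1:**
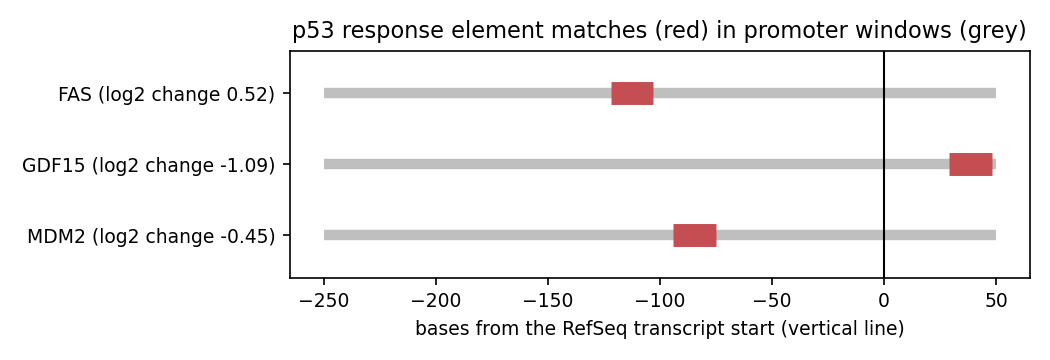
Position of the p53 response element matches (red bars) in the RefSeq promoter windows (grey bars) of FAS, GDF15 and MDM2, in bases from the transcript start, with the log2 change of each gene beside its name. The FAS match lies before the most downstream RefSeq start of that gene, from -122 bases. The MDM2 match lies before a start of the downstream promoter, from -94 bases. Both lie after the upstream RefSeq starts of their genes, which are not drawn, and the GDF15 match lies after its start. The changes are 0.52 for FAS, -0.45 for MDM2 and -1.09 for GDF15.

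Of the 9 genes GDF15 alone was past 2-fold. Changes are given as log2((MYOCD RPKM + 0.5)/(WT RPKM + 0.5)), a scale that understates the change of low genes. GDF15 was lower in MYOCD, 0 genes were higher by that much, and the other 8 lay under 2-fold and also under 1.5-fold. Over all 17350 genes 6.35% were lower and 5.42% were higher by 2-fold or more, or 3.1% and 3.02% of the 12337 protein-coding genes. At 1.5-fold the shares over all genes were 13.2% and 11.6%. The 9 genes had 6 changes below 0 and 3 above, with a median of -0.28, beside a median of -0.00 over all genes, of which 50.2% were below 0.

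In WT the order of levels was MDM2, CDKN1A, TNFRSF10B, GDF15, RRM2B, MDM4, BTG2, FAS and ZMAT3. In MYOCD it was MDM2, TNFRSF10B, CDKN1A, RRM2B, GDF15, MDM4, FAS, BTG2 and ZMAT3. MDM2 was thus the most abundant and ZMAT3 the least abundant in both libraries, and 3 neighbouring pairs changed places. The spread that would say which neighbours differ is unknown with 1 library in each group.

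**Figure D2:**
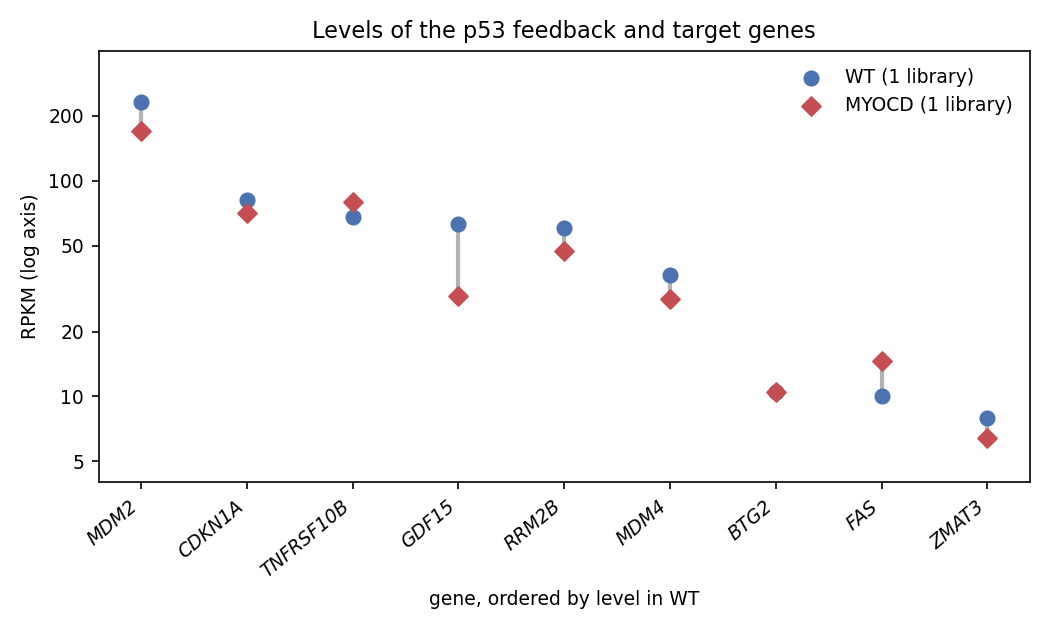
RPKM (log axis) of the 9 genes in the WT library (blue circles) and the MYOCD library (red diamonds), ordered by level in WT; a grey line joins the values of a gene. The widest gap is that of GDF15 (62.7 and 29.1 RPKM), FAS and TNFRSF10B are higher in MYOCD, and the BTG2 values coincide.

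Both inhibitors of p53 had lower values in MYOCD, under 1.5-fold. MDM2 (ENSG00000135679, chr12:68808176-68850686, plus strand, GRCh38), the ubiquitin ligase, stood at 232 RPKM in WT against 169 in MYOCD, a log2 change of -0.45. It was among the more abundant transcripts of both libraries, with 2.37% of expressed genes at or above its level in WT and 3.46% in MYOCD. Of the 810 genes with a mean RPKM within 2-fold of that of MDM2, 17.7% changed as far in either direction and 8.89% as far downward, so a difference of this size was not rare between these libraries.

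The MDM2 model shares exon bases with other models, and the sources used here do not say how such reads were divided. On the opposite strand 785 nt overlap the antisense gene AC025423.4, which stood at 72.2 and 57.7 RPKM in WT and MYOCD, and 133 nt overlap CPM, at 22.7 and 25.3. On the same strand 439 nt overlap the pseudogene AC025423.2, at 67.9 and 46.3 RPKM. AC025423.4 and AC025423.2 thus had lower and CPM a higher value in MYOCD, and the value of MDM2 is uncertain to the extent that reads were shared.

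MDM4 (ENSG00000198625, chr1:204516379-204558120, plus strand), which encodes the inhibitor without ligase activity of its own, stood at 36.7 RPKM in WT against 28.4 in MYOCD, a log2 change of -0.36. Of 4663 genes of similar level 27.9% changed as far. MDM2 stood at 6.30 times the RPKM of MDM4 in WT and 5.95 times in MYOCD, so the ratio between the inhibitors was close in the 2 libraries.

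CDKN1A (ENSG00000124762, chr6:36676460-36687339, plus strand) encodes p21, the CDK inhibitor through which p53 stops the cell cycle. Its level was 81.6 RPKM in WT against 70.8 in MYOCD, a log2 change of -0.20. Of 2495 genes at a similar level 47.9% changed as far, which places CDKN1A near the middle of the spread. CDKN1A shares 146 nt of exon with DINOL on the opposite strand, for which no value was listed. BTG2 (ENSG00000159388, chr1:203305491-203309602, plus strand), an antiproliferative gene of the BTG/TOB family, stood at 10.46 RPKM in WT against 10.52 in MYOCD, a log2 change of 0.01. It was the gene of the 9 with the smallest change.

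GDF15 (ENSG00000130513, chr19:18374731-18389176, plus strand) encodes a secreted stress cytokine of the TGF-beta superfamily that is induced by p53 and also by the integrated stress response. It stood at 62.7 RPKM in WT against 29.1 in MYOCD, a log2 change of -1.09 and 2.15 times as high in WT by the deposited values. In WT 11.3% of expressed genes were at or above its level, and in MYOCD 24.9%. Of 3809 genes of similar level 6.48% changed as far in either direction and 3.78% as far downward. Among the 3429 protein-coding genes of similar level these shares were 1.81% and 1.05%. The microRNA gene MIR3189, which lies in an intron of GDF15 on the same strand, was listed at 0 in both libraries.

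The 2 death receptor genes of the 9 had higher values in MYOCD, both under 1.5-fold. FAS (ENSG00000026103, chr10:88990582-89015785, plus strand), the receptor of Fas ligand, stood at 10.1 RPKM in WT against 14.6 in MYOCD, a log2 change of 0.52 and the highest of the 9. Of 5575 genes of similar level 20.5% changed as far, and 9.31% as far upward. FAS shares 380 nt of exon with ACTA2, which lies on the opposite strand and stood at 8.28 and 8.97 RPKM. A small RNA model inside FAS on the same strand (ENSG00000275693, RF02116 in GENCODE) was listed at 4.94 RPKM in WT against 0 in MYOCD.

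TNFRSF10B (ENSG00000120889, chr8:23020133-23069179, minus strand) encodes DR5, a receptor of the death ligand TRAIL. It stood at 68.0 RPKM in WT against 79.6 in MYOCD, a log2 change of 0.23, and 44.0% of 2569 genes of similar level changed as far. Its paralogs, named after their values were seen, were at 13.9 and 14.5 RPKM for TNFRSF10A (0.06), 1.84 and 0.989 for TNFRSF10C (-0.65), and 11.98 and 12.03 for TNFRSF10D (0.01). TNFRSF10B stood at 6.75 times the RPKM of FAS in WT and 5.44 times in MYOCD. Its model shares 67 nt of exon with RHOBTB2 on the opposite strand (6.94 and 7.81 RPKM).

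RRM2B (ENSG00000048392, chr8:102204502-102239118, minus strand) encodes the p53-inducible small subunit of ribonucleotide reductase, which supplies deoxynucleotides for DNA repair. It stood at 60.1 RPKM in WT against 47.0 in MYOCD, a log2 change of -0.35, and 27.7% of 3433 genes of similar level changed as far. The other listed subunit genes of ribonucleotide reductase were on the other side of 0, with RRM2 at 142 and 161 RPKM (0.18) and RRM1 at 62.9 and 74.1 (0.23). RRM2 stood at 2.37 times the RPKM of RRM2B in WT and 3.43 times in MYOCD.

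ZMAT3 (ENSG00000172667, chr3:179017223-179072279, minus strand) encodes an RNA-binding zinc finger protein that regulates splicing and the stability of mRNAs. It stood at 7.96 RPKM in WT against 6.45 in MYOCD, a log2 change of -0.28, and 50.4% of 5056 genes of similar level changed as far. ZMAT3 thus lay at the middle of the spread for its level.

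**Figure D3:**
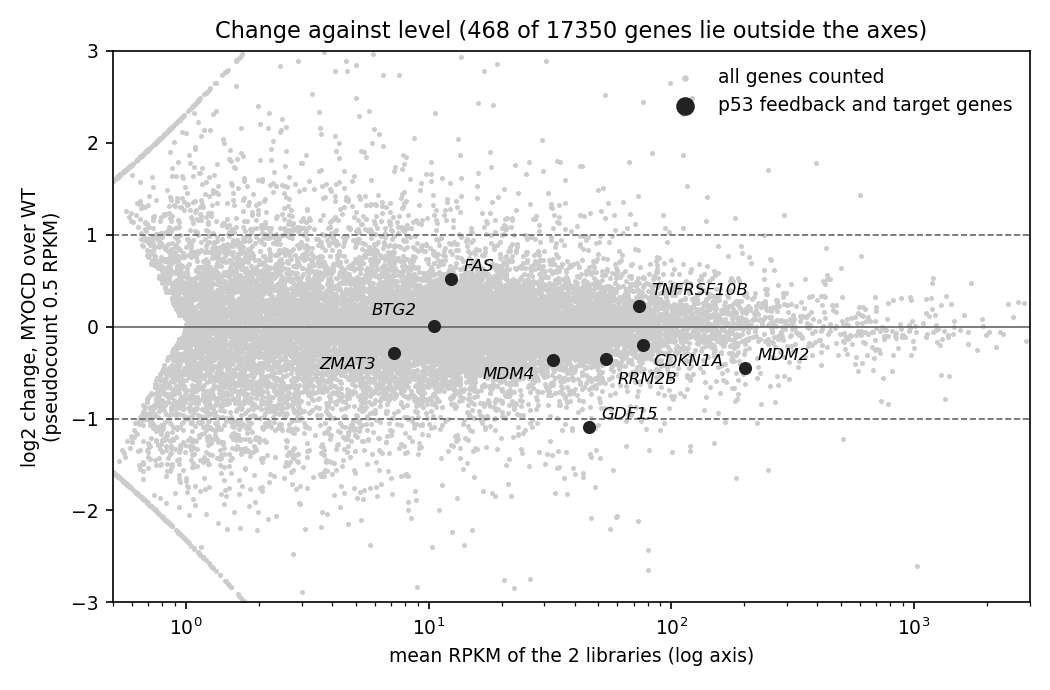
Log2 change (MYOCD over WT, pseudocount 0.5 RPKM) against the mean RPKM of both libraries (log axis) for the genes counted (grey) and the 9 genes (black, named); dashed lines mark 2-fold, and 468 of 17350 genes lie outside the axes. GDF15 at -1.09 is the 1 named gene past a dashed line, and the other 8 lie inside the grey band between -0.45 and 0.52.

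Other targets of p53 were read from lists by role, 79 genes in all, of which 75 reached 1 RPKM. By 2-fold or more 1 of these stood higher and 2 stood lower, beside 5.42% and 6.35% of all genes, or 3.02% and 3.1% of protein-coding genes. At these shares a short list commonly holds 0 such genes, so the counts by list below do not set a list apart. The median log2 change of the 75 genes was 0.01, and 48.0% were below 0. The median of the 9 genes was -0.28, and the difference between these medians was not tested. By role, the target medians ran from -0.16 for the 26 targets of no other list, 16 of them below 0, to 0.15 for metabolism and autophagy.

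The member of the 79 that was higher by 2-fold was SFN, which encodes 14-3-3 sigma, an inhibitor of entry into mitosis, with 41.5 RPKM in WT against 84.5 in MYOCD (log2 change of 1.02). The 2 that were lower were CD82, a tetraspanin gene, with 6.92 and 2.90 RPKM (-1.13), and GLS2, the mitochondrial glutaminase gene, with 2.48 and 0.909 (-1.08). CD82 shares 280 nt of exon with AC010768.1 on the opposite strand (0 and 0.158 RPKM). GLS2 shares 3193 nt of exon with SPRYD4 on the opposite strand (1.65 and 1.37 RPKM), so its value is uncertain if strand was not used. With the median change of 11 steady reference genes set to 0, GLS2 lay at -0.99, under the 2-fold line. Steady is the name of that list and not a result here. Before that shift its 11 genes ran from -0.62 (CHMP2A) to 0.20, with 7 below 0.

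Of 6 further genes that feed back on p53 or its pathway, 0 were at or beyond 2-fold in either direction. CCNG1, which encodes cyclin G1, stood at 89.9 RPKM in WT against 71.6 in MYOCD (-0.33), the AKT inhibitor gene PHLDA3 at 42.1 and 52.6 (0.32), and TRAF4 at 61.5 and 63.5 (0.05). Among 9 cell cycle targets SFN alone was past 2-fold, and SESN2 (2.91 and 6.26 RPKM, 0.99) joined it with the steady reference genes at 0 (1.07). In that list the kinase gene PLK2 stood at 149.98 and 161 RPKM and the antiproliferative gene TOB1 at 69.2 and 37.1 (-0.89). TOB1 also belongs to a list of 6 BTG2 relatives and deadenylase genes, of which 0 were past 2-fold, with CNOT7 at 137 and 121 RPKM and CNOT8 at 24.6 and 20.1. The median of that list was -0.23, with 4 of the 6 below 0.

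Among 18 cell death targets 0 were past 2-fold, 9 were above and 9 below 0, and the median was 0.00. BAX, the pore-forming apoptosis effector, stood at 229 and 262 RPKM, RPS27L at 364 and 363, and IGFBP3 at 171 and 152. In the list of 13 other death receptor genes 0 were past 2-fold, with the receptor gene TNFRSF1A at 212 and 282 RPKM (0.41), the caspase-8 inhibitor gene CFLAR at 54.9 and 59.0 (0.10), and BID at 40.5 and 31.6 (-0.35). That list shares TNFRSF10A, TNFRSF10C, TNFRSF10D and BID with the cell death targets. The ligands of both receptors, FASLG (0 and 0.0325 RPKM) and TNFSF10 (0.623 and 0.117), were under 1 RPKM in both libraries.

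DNA repair targets had 0 of 6 genes past 2-fold, with the sliding clamp gene PCNA at 257 and 230.4 RPKM, the nucleotide excision repair gene DDB2 at 44.3 and 50.7, and XPC of the same repair pathway at 24.4 and 23.9. Of 10 metabolism and autophagy targets GLS2 alone was past 2-fold, while SAT1 stood at 168 and 203 RPKM, GPX1 at 89.6 and 99.6, and TIGAR, which lowers glycolytic flux, at 23.5 and 24.6. Of 26 remaining targets CD82 alone was past 2-fold, and the most abundant were FBXO22 (111 and 139), CCDC90B (51.1 and 46.4) and the plexin gene PLXNB2 (38.2 and 51.7).

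Of 5 p53-responsive noncoding RNAs past the filter 0 were at or beyond 2-fold. NEAT1, the scaffold of paraspeckles, stood at 477 RPKM in WT against 479 in MYOCD, and LINC01021, which is also known as PURPL, at 28.9 and 28.8. LINC-PINT stood at 10.8 and 6.73 (-0.65).

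Upstream of p53, 0 of 21 regulator genes were past 2-fold, and the median was 0.03. With the steady reference genes at 0, DAXX (9.64 and 19.1 RPKM, 0.95) passed the line at 1.04. The most abundant were the nucleolar protein gene NPM1 (2435 and 2928 RPKM), the ubiquitin fusion gene RPS27A (877.5 and 803) and RPL11 (509 and 479), whose protein binds MDM2. Downstream of p21, 0 of 20 cell cycle genes that the p53-p21 axis represses were past 2-fold, with a median of 0.03, TOP2A at 192 and 194 RPKM, CCNB1 at 186 and 191, and RRM2 as above. Of 12 genes of the cyclin, CDK and RB axis 0 were past 2-fold. There CCND3 stood at 198 and 119 RPKM (-0.73), CCND1 at 166 and 133 (-0.32), and CDK4 at 95.8 and 135 (0.49).

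Of 7 genes of the GDF15 receptor and related ligands 3 reached 1 RPKM. GDF1, the 1 of them past 2-fold, was listed at 1.38 RPKM in WT against 0.00159 in MYOCD, but all 2517 nt of its model lie in exons of CERS1 on the same strand (1.40 and 3.91 RPKM), so its value is uncertain. GDF11 stood at 1.499 and 3.23 RPKM and BMP7 at 3.95 and 2.28. GFRAL, the receptor of GDF15, was listed at 0 in WT against 0.0408 RPKM in MYOCD.

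**Figure D4:**
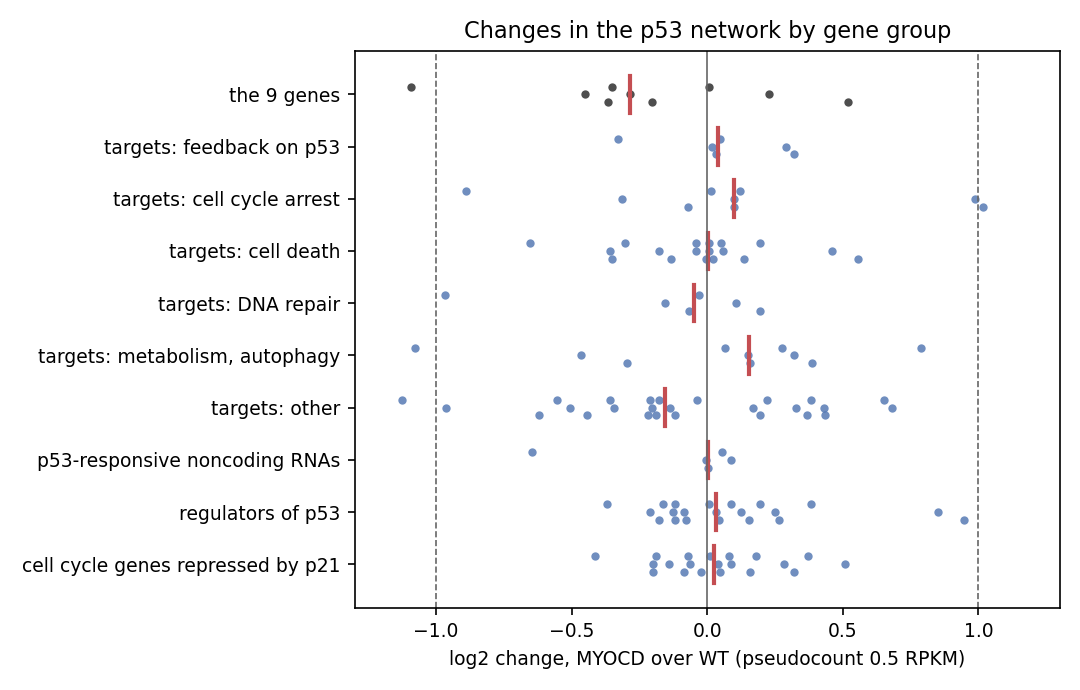
Log2 change (MYOCD over WT) of each gene past the filter, by group of the p53 network; points are genes, red bars are group medians and dashed lines mark 2-fold. The median of the 9 genes lies at -0.28, while those of the cell death targets, the regulators of p53 and the p21-repressed cell cycle genes lie at 0.00, 0.03 and 0.03. The largest target group, the other targets, also has a median below 0, at -0.16, and the metabolism and autophagy targets have one of 0.15.

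The changes of the 9 genes varied little with the scaling and the pseudocount. GDF15 ranged from -1.10 to -1.01 and stayed past 2-fold under each of the 6 alternatives. 1 of these, summed rows, could not differ from the main setting, since each symbol stood on 1 row. MDM2 ranged from -0.45 to -0.37, MDM4 from -0.37 to -0.28, RRM2B from -0.35 to -0.26, ZMAT3 from -0.30 to -0.20 and CDKN1A from -0.20 to -0.12, all below 0 under each alternative. FAS ranged from 0.50 to 0.61 and TNFRSF10B from 0.22 to 0.31, both above 0, and FAS passed 1.5-fold only with the steady reference genes at 0. BTG2 ranged from 0.01 to 0.09.

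**Figure D5:**
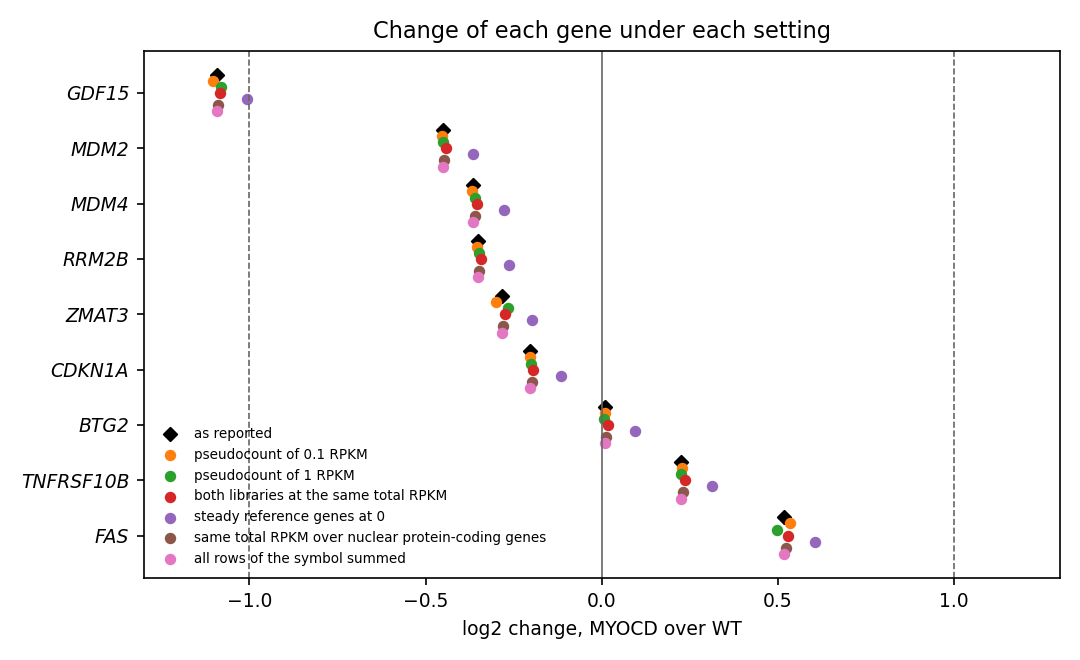
Log2 change of each of the 9 genes as reported (black diamonds) and under 6 alternatives (coloured circles), with dashed lines at 2-fold. Summed rows equal the reported values, since each symbol stood on 1 row. Setting the steady reference genes to 0 moves every gene upward by the same amount, and GDF15 then lies at -1.01, at the dashed line.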

How the data were processed

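The authors deposited 1 table of RPKM, with 1 column for each library, and a key at its head assigns the columns to WT and MYOCD, per the file headers. The submitters' processing notes list Bowtie 0.12.2 with the genome builds GRCh38.p12 and mm8 (a mouse build), without a role. The sources used here do not give the counting tool, the annotation or the use of strand. RPKM carries no counts. At the best of many read units tried, 31.2% (WT) and 33.5% (MYOCD) of low values came within 0.1 of a whole read. A unit fixed beforehand would give 20% by chance, and the best of many would give more. Reads were thus not recovered, depth is unknown and no count test was run.

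Values were processed with Python 3.11.15, pandas 2.3.3 and numpy 2.4.6. The arithmetic of the log2 change and the 2-fold call was checked with known changes put into the real values without noise. That check did not cover the lists, overlaps or promoter search. For a symbol on several of the 57979 rows the row with the highest mean was used. The pseudocount was 0.5 RPKM, the filter 1 RPKM in at least 1 library and the call 2-fold, a rule of size. Gene models came from GENCODE 29 (GRCh38), which held 57375 of the identifiers, and promoter windows from RefSeq. Exon overlap was looked up for the 9 genes, MYOCD, GDF1, SFN, GLS2 and CD82 alone. The share of genes of similar level is over genes counted whose mean RPKM lay within 2-fold. Named were the 9 genes, MYOCD, CDKN2A, and of each list but the steady reference genes the genes past 2-fold and the 3 most abundant. Other genes were named after their values were seen: CHMP2A, KRT19, DCN, SFTPC, NKX2-1, PTPRC, FASLG, TNFSF10, GFRAL and the genes that overlap a named one. The members and lists were chosen with earlier results of these data known, and the mismatch limit of the element after its matches were seen. The alternatives were pseudocounts of 0.1 and 1 RPKM, 3 scalings, summed rows, other filters, 1.5-fold and protein-coding genes alone. Some genes of these lists are not reported here.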

Additional observations from a re-analysis of the deposited data

How the results depend on the processing

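Each of the 9 genes kept its direction and its side of the 2-fold line under both other pseudocounts and the 3 scalings. Summed rows could not differ, since each symbol stood on 1 row. The number of members past 2-fold was the same under each alternative. The other filters and the protein-coding setting could not change that number, since all 9 genes are protein-coding and reached 5 RPKM in a library. The background varied more. Against 940 genes higher and 1102 lower, there were 450 and 510 with an RPKM of at least 5, 372 and 382 among protein-coding genes alone, and 2007 and 2296 at 1.5-fold, as fewer or more genes then qualify. Setting the median of the 11 steady reference genes to 0 moved the median of all genes to 0.08 and gave 1074 genes higher and 983 lower, the balance turned round. Those 11 genes themselves ran from -0.62 to 0.20 in the main setting. List medians near 0 (cell death, repair and the cyclin axis) took either sign across settings. The median of the GDF15 receptor and relatives, -0.68 over 3 genes, was 0.11 without a filter, when genes under 1 RPKM enter. No paired analysis was possible because each group holds 1 library, and no library could be left out. Depth is unknown, so no counting error is given.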

Other observations

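Beside the genes past 2-fold, a few genes of the p53 network lay just under it, and these were picked after their values were seen. SESN2, which encodes a stress-induced inhibitor of mTORC1 signalling, stood at 2.91 RPKM in WT against 6.26 in MYOCD (log2 change of 0.99). By the deposited values this was a ratio of 2.15, past 2-fold without the pseudocount. Its relative SESN1 stood at 8.80 and 6.98 (-0.32). DAXX, a histone chaperone gene whose protein also binds MDM2, stood at 9.64 and 19.1 RPKM (0.95). With the steady reference genes at 0, SESN2 (1.07) and DAXX (1.04) lay past the 2-fold line. REV3L, the catalytic subunit gene of the translesion polymerase zeta, stood at 23.1 and 11.6 RPKM (-0.97). THBS1, which encodes the matrix protein thrombospondin, stood at 32.4 and 16.4 RPKM (-0.96).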
